A study of Homo sapiens with 10 samples.

Results

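Broad RNA-DNA hybrid domains of 5 kb or more were studied in U2OS cells, a human osteosarcoma line. Overlapping peaks of 5 peak lists were joined into merged regions on chromosomes 1 to 22 and X, and a merged region was called a domain when it was at least 5000 bases wide. This rule kept 1228 domains of 177039 merged regions (0.694%), and they spanned 11.9 Mb of the 116 Mb in merged regions. The domains were thus selected on the deposited peaks themselves: the peak positions of all 5 libraries chose them, so their widths, the share of peaks inside them and their comparison with narrower regions are descriptions without a test. The rule pooled all libraries and used no genotype or experiment, but a domain can owe its width to the libraries in which it was fullest.

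The 5 libraries came from DRIP-seq. The antibody S9.6 binds hybrids in sonicated nucleic acids, here from nuclei without crosslinking, and the DNA of what it pulls down is sequenced. In such bulk libraries, hybrids in fewer cells and fewer hybrids per cell cannot be told apart. RNase H, which digests the RNA of a hybrid, was applied to the immunoprecipitated samples before the second strand was made. There were 3 SCAN1 libraries, all carrying TDP1 H493R, and 2 wild-type (WT) libraries. The line SCAN1#1 gave replicates 1 and 2 and the line SCAN1#2 gave replicate 2, and WT gave replicates 1 and 2. The replicate number is that of the experiment, and the labels name another antibody lot in each, so experiment and lot cannot be told apart. SCAN1#1 holds 2 of the 3 SCAN1 libraries, and nothing in the labels shows that replicates came from separate cultures. All p-values therefore measure only the spread between these libraries. Peaks cannot check a point mutation such as H493R, so the genotype rests on the labels.

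An R-loop forms when a nascent RNA pairs again with its template strand behind RNA polymerase and leaves the other DNA strand single. R-loops are known at promoters with CpG islands and at transcript ends, where polymerase slows before it lets go of the template. Topoisomerase 1 relaxes the supercoils of transcription, and TDP1 removes topoisomerase 1 that stays trapped on DNA. H493R is the change behind SCAN1, a spinocerebellar ataxia with axonal neuropathy. The study is about repair of the DNA breaks that transcription leaves in cells with this mutation.

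The sequences below show promoters inside the domains that the results turn on, since base composition can be read there without the peaks. Each is a RefSeq promoter window on GRCh38.p14, from 250 bases before to 50 bases after the start of a gene, printed 5′ to 3′ on the strand of that gene. Capitals mark runs of 4 or more G, and runs of 4 or more C, which are the same runs on the other strand. BRD2 (a bromodomain protein that reads acetylated histones) and PMEPA1 (an inhibitor of TGF-beta signalling) lie in domains that nearly filled every library. U2AF2 (the splicing factor of the polypyrimidine tract) and RCC1 (the exchange factor of the GTPase Ran) lie in 2 of the widest domains. SMIM29, a neighbour of HMGA1, has its promoter at the edge of a domain.
BRD2, chr6:32968344-32968643, plus strand: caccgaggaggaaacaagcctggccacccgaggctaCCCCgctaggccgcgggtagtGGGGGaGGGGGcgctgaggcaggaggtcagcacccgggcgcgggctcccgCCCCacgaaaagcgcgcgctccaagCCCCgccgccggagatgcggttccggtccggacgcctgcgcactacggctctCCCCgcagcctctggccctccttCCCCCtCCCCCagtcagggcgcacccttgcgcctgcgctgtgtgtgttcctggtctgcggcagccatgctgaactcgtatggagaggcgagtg
PMEPA1, chr20:57690637-57690936, minus strand: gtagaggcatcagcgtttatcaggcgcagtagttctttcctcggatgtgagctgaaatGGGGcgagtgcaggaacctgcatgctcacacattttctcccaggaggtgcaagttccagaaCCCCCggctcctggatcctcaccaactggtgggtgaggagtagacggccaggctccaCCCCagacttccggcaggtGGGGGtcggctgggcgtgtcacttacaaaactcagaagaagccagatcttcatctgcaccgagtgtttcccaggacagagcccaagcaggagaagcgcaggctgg
U2AF2, chr19:55654785-55655084, plus strand: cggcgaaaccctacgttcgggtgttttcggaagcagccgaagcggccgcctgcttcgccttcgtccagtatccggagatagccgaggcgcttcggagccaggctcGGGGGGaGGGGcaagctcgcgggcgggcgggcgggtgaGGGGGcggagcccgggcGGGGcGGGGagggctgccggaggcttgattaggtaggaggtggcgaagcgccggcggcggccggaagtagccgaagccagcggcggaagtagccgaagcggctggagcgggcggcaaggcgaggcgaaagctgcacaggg
RCC1, chr1:28505793-28506092, plus strand: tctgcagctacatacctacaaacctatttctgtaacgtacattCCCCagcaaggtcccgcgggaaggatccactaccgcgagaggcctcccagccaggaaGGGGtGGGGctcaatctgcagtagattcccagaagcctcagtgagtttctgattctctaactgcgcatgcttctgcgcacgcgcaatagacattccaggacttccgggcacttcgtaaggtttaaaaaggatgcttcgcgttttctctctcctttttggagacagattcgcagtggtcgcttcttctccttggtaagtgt
SMIM29, chr6:34248957-34249256, minus strand: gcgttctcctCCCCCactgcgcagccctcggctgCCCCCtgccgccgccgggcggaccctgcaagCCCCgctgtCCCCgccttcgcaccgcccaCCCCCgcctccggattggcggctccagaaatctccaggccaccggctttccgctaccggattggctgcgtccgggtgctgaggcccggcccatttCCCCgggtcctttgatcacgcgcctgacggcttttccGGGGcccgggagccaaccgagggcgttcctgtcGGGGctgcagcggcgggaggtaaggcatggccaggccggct

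All 300 bases of the windows of BRD2, PMEPA1 and U2AF2 were covered by peaks in all 5 libraries. The RCC1 window was covered over 105 bases in SCAN1#2 and over its whole length in the other 4 libraries. The SMIM29 window was covered over 88 and 0 bases in SCAN1#1 and 279 bases in SCAN1#2, against 0 bases in both WT libraries. A promoter within a domain can therefore be without a peak in a given library. The printed windows ranged from 51.7% G plus C for RCC1 to 73.0% for SMIM29. The U2AF2 window held 5 runs of G and 0 runs of C, whereas the SMIM29 window held 2 runs of G and 6 runs of C.

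Of 15812 promoter windows of protein-coding genes in the table, 548 (3.47%) lay wholly within a domain, and 4325 others overlapped a narrower merged region. The median G plus C share was 65.0% in the windows within domains, 65.3% in those of narrower regions and 62.7% over all windows. The ratio of observed to expected CpG had medians of 0.824 within domains, 0.846 in narrower regions and 0.756 over all windows. The letters GGGG on the strand of the gene were present in 90.1% of the windows within domains, in 86.1% of those of narrower regions and in 80.6% of all windows. On either strand these shares were 98.4%, 97.8% and 93.4%, in the same order. The letters TATAAA on either strand were present in 7.30% of the windows within domains, 5.11% of those of narrower regions and 9.92% of all windows. In composition the promoters of domains thus lay close to those of narrower regions, and the values are a description without a test. Peaks of all 5 libraries covered the whole window for 211 of the 548 promoters (38.5%).

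The peak lists differed in length and in how much of their sequence fell into domains. The lists held 63456 and 110745 peaks in SCAN1#1 replicates 1 and 2 and 89932 in SCAN1#2, against 82545 and 89445 in WT replicates 1 and 2. No source used here states a read depth, and a counting interval for a region could not be computed. Domains held 23.6% and 13.8% of the peak bases of SCAN1#1 replicates 1 and 2 and 14.1% of those of SCAN1#2, against 19.9% and 14.9% in WT replicates 1 and 2. The share was thus higher in both libraries of experiment 1 than in the 3 of experiment 2. Peaks within domains were 3.12% to 6.29% of each list, and they were wider than other peaks. The median width of a peak within domains ran from 969 to 1451.5 bases over the libraries, against 362 to 422 bases for other peaks. Their median fold enrichment, the authors' own value for each peak, ran from 6.27 to 7.46 within domains and from 4.80 to 5.89 elsewhere.

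A domain was usually several peaks in 1 library that the other libraries bridged. The mean number of peaks per domain ran from 2.82 to 3.33 over the 5 libraries, and a single peak of 5 kb or more occurred 269 to 594 times in a list. Nearly every domain was shared: 1213 of the 1228 (98.8%) had a peak in all 5 libraries, against 12.4% of all merged regions. A wide region has more chances to meet a peak, so this share follows in part from the rule. Another 10 domains had a peak in 4 libraries, 3 in 3 and 2 in 2, and none had a peak in 1 library only. At least 50% of the width was covered in 1148 and 1144 domains in SCAN1#1 replicates 1 and 2 and in 833 in SCAN1#2, against 1126 and 1016 in WT replicates 1 and 2. SCAN1#2 thus had the fewest well-filled domains.

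Widths ran from 5001 to 59260 bases with a median of 7761.5, and 391 domains reached 10 kb, 77 reached 20 kb and 16 reached 30 kb. The narrowest domains lay at CAMSAP1-DT (5001 bases), at VPS4A (5006) and at TROAP and C1QL4 (5009). The regions just under the minimum lay at CAPN2 (4999 bases), ZNF274 (4993) and GTSE1 (4991), and all 6 had a peak in each library. The domain at VPS4A, an ATPase of membrane scission, had 2062 and 1596 covered bases in SCAN1#1 and 2258 in SCAN1#2, against 5006 and 2294 in WT. Its width came from WT replicate 1 alone.

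Domains defined in one experiment were also read in the other, which had no part in choosing them. The 2 libraries of experiment 1 alone gave 875 domains, and 99.7% to 99.9% of these had a peak in each library of experiment 2. Their median covered percent was 80.5% in SCAN1#1 and 64.1% in SCAN1#2, against 73.1% in WT. Of 11259 regions of 1 kb to under 5 kb from the same 2 libraries, 81.8% to 90.6% had a peak in a library of experiment 2. The 3 libraries of experiment 2 alone gave 824 domains, whose medians were 91.1% in SCAN1#1 and 89.4% in WT of experiment 1. Of the domains of experiment 1, 575 (65.7%) overlapped a domain of experiment 2, and 585 of those of experiment 2 (71.0%) overlapped one of experiment 1. Whether a stretch passed 5 kb therefore varied more between experiments than whether it had peaks.

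The 12 widest domains fell into 2 kinds, 9 with protein-coding genes and 3 without any gene in the table. The widest with genes, chr1:28497699-28543191, ran over RCC1, PHACTR4 and SNHG3, the last a host of small nucleolar RNAs. Peaks covered 95.6% and 46.1% of it in SCAN1#1 replicates 1 and 2 and 43.4% in SCAN1#2, against 99.96% and 53.1% in WT replicates 1 and 2. Both libraries of experiment 1 were high and all 3 of experiment 2 were low, with no overlap. The domain of U2AF2, ZNF581, ZNF580 and CCDC106 (chr19:55627441-55672274) showed 92.6% and 59.0% in SCAN1#1 and 48.6% in SCAN1#2, against 94.0% and 49.2% in WT. The same order by experiment held at PTOV1, KRT80 (a keratin), ARPC1B (a subunit of the actin-branching Arp2/3 complex), AXL (a receptor tyrosine kinase) and PLEC (the cytoskeletal linker plectin). In these 5 domains, experiment 2 gave 61.5% to 82.0% and experiment 1 gave 93.3% to 99.97%.

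PMEPA1 (chr20:57668093-57709482, 41390 bases) was the exception among the widest domains shown. It was covered over 98.2% and 98.8% in SCAN1#1 and 91.6% in SCAN1#2, against 95.1% and 93.8% in WT, so that all 5 libraries were high.

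**Figure D1:**
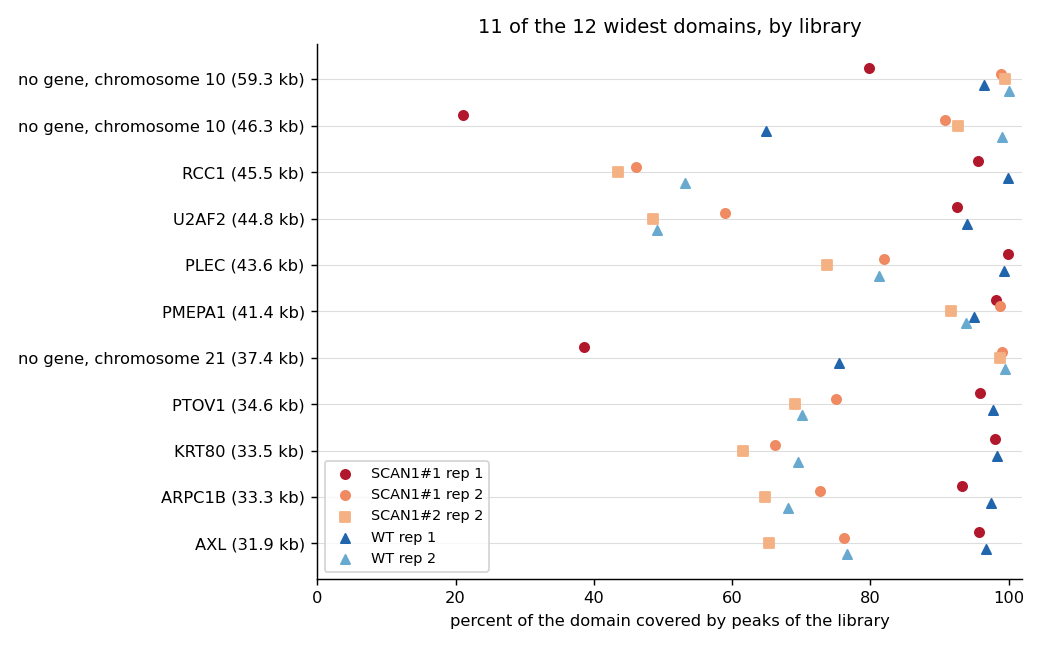
Percent of each of 11 of the 12 widest domains (rows, width in kb) that was covered by peaks of each library (points; circles SCAN1#1, squares SCAN1#2, triangles WT). The domains with genes are fuller in the dark points of experiment 1, except PMEPA1, and the 3 without a gene are emptiest in SCAN1#1 replicate 1, at 21% to 79.8%.

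The domains that were fullest in their emptiest library were led by 2 copies of mitochondrial sequence in the nuclear genome. The domain at chr5:134923312-134928526, in PCBD2, holds pseudogenes of mitochondrial genes such as MTND5P11 and MTCYBP18 and was covered over 99.4% to 99.98% in every library. The domain at chr1:629090-634916 holds MTCO1P12, MTND2P28 and others and was covered over 98.7% to 100%. Mitochondrial RNA and DNA were not analysed here, and no source used here says how reads that match both genomes were placed. The next were 2 domains without a gene, on chromosomes 22 and 20, covered over 94.3% to 98.6%.

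Among the fullest domains with ordinary genes, BRD2 was covered over 93.7% to 97.3% in the 5 libraries. HMGA1, an architectural chromatin protein, was covered over 93.6% to 98.1%. MYEOV (92.1% to 99.2%), the helicase gene RECQL4 (91.8% to 98.7%), S100A2 (91.5% to 98.2%), a calcium-binding protein, and PHLDA3 (91.4% to 98.5%), a p53 target that restrains AKT, were also among the 12, as was PMEPA1. In these domains SCAN1 and WT libraries overlapped.

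Protein-coding genes lay beneath 1111 domains (90.5%), other genes only beneath 46 and no gene beneath 71. A domain often held more than 1 protein-coding gene: 570 held 1, 394 held 2, 106 held 3, 32 held 4 and 9 held 5 or 6. In all, 1653 of 19974 protein-coding genes (8.28%) overlapped a domain by at least 1 base. Peaks carry no strand, so a domain over neighbouring genes cannot be given to one of them. Of 1196 small nucleolar RNA genes 101 lay beneath domains (8.44%), of 1911 microRNA genes 115 (6.02%), of 18177 long noncoding RNA genes 296 (1.63%) and of 443 tRNA genes 1 (0.226%).

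Genes beneath domains were short. Their median length was 11974 bases, against 26262 bases for other protein-coding genes, and 503 of them had 90% or more of their length in domains. The share beneath a domain was 14.5% for genes of 5 to 10 kb, 11.6% below 5 kb, 4.02% for genes of 50 to 100 kb and 1.43% for genes of 200 kb or more. The share thus was lowest among the longest genes, although a long gene offers more sequence to overlap. Relative to their number of genes, domains were most frequent on 4 chromosomes. There were 17.7 domains per 100 protein-coding genes on chromosome 22, 11.9 on chromosome 17, 11.2 on chromosome 19 and 10.1 on chromosome 20. Chromosome 13 had 0.888 and chromosome 4 had 1.17, against 6.15 over all chromosomes together.

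Gene lists of abundant, widely expressed products were common beneath domains. The lists are described by counts beside the 8.28% of all protein-coding genes, and no list was tested. Noncoding genes had a lower background, such as 1.63% of all long noncoding RNA genes. Of 79 cytosolic ribosomal protein genes 50 (63.3%) lay beneath a domain, and of 31 genes of actin, tubulin and the cytoskeleton 20 (64.5%). Of 26 host genes of small nucleolar RNAs, 14 did (53.8%), of 18 glycolysis genes 7 (38.9%) and of 34 translation factors 12 (35.3%). Such genes are known for high and steady transcription in most cells, and transcript levels were not measured here. ENO1, the glycolytic enolase, lay in a domain of 25085 bases covered over 90.5% and 82.9% in SCAN1#1 and 54.4% in SCAN1#2, against 95.8% and 78.3% in WT. Both libraries of experiment 1 were again the fullest.

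Other lists lay between these and the background. Of 28 p53 targets 9 (32.1%) were beneath a domain, among them DDB2 (a sensor of ultraviolet damage, 23205 bases), PLK3 (a stress kinase, 15587 bases), BAX and BBC3 (both promoters of cell death). Of 48 splicing factors and RNA-binding proteins 14 were (29.2%), including HNRNPUL1 and SRRM2. Of 22 nuclear and abundant long noncoding RNAs 6 were (27.3%): NEAT1, the scaffold of paraspeckles, in 24198 bases, MALAT1 in 5338 bases, and GAS5, PVT1, MIR22HG and SCARNA2. Of 42 immediate early and stress genes 11 were (26.2%), including FOSL1, FOSL2, ATF4 and MYC. The NEAT1 domain was covered over 94.7% and 50.4% in SCAN1#1 and 46.4% in SCAN1#2, against 93.3% and 38.0% in WT. The MALAT1 domain was steadier, with 82.9% and 70.9% in SCAN1#1 and 76.8% in SCAN1#2, against 80.9% and 68.8% in WT.

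The remaining lists ranged from 21.1% down to 0. Ubiquitin, ferritin and metallothionein genes had 4 of 19 (21.1%), heat shock and chaperone genes 5 of 31 (16.1%), nuclear genes of the respiratory chain 6 of 39 (15.4%), and replication-dependent histone genes 7 of 63 (11.1%) in 4 domains. Topoisomerase and R-loop processing genes had 4 of 35 (11.4%), among them RNASEH2C, TOP2A and LIG3, and zinc finger genes 32 of 597 (5.36%). RNA polymerase III, snRNA and rRNA genes had 2 of 33 (6.06%), beside 0.649% of all snRNA genes and 0.226% of all tRNA genes. LINC genes had 21 of 2303 (0.912%), beside 1.63% of all long noncoding RNA genes. None of the 30 very long and fragile-site genes and 1 of 395 olfactory receptor genes, OR3A2, overlapped a domain.

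Markers give only a loose check of the cell type here, because peaks are not transcript levels. Of 31 genes of collagen, matrix and osteoblasts 4 were beneath a domain (12.9%), among them ANXA2, BGLAP and LGALS1. Most of this list thus had no domain, and the share over all protein-coding genes was 8.28%. BGLAP had 1134 bases in a domain of 10308 bases that it shares with PAQR6, PMF1-BGLAP and SMG5. Of 38 markers of unrelated lineages 1 was (2.63%), the B-cell gene CD79A, whose domains it shares with RPS19 and with ARHGEF1.

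**Figure D2:**
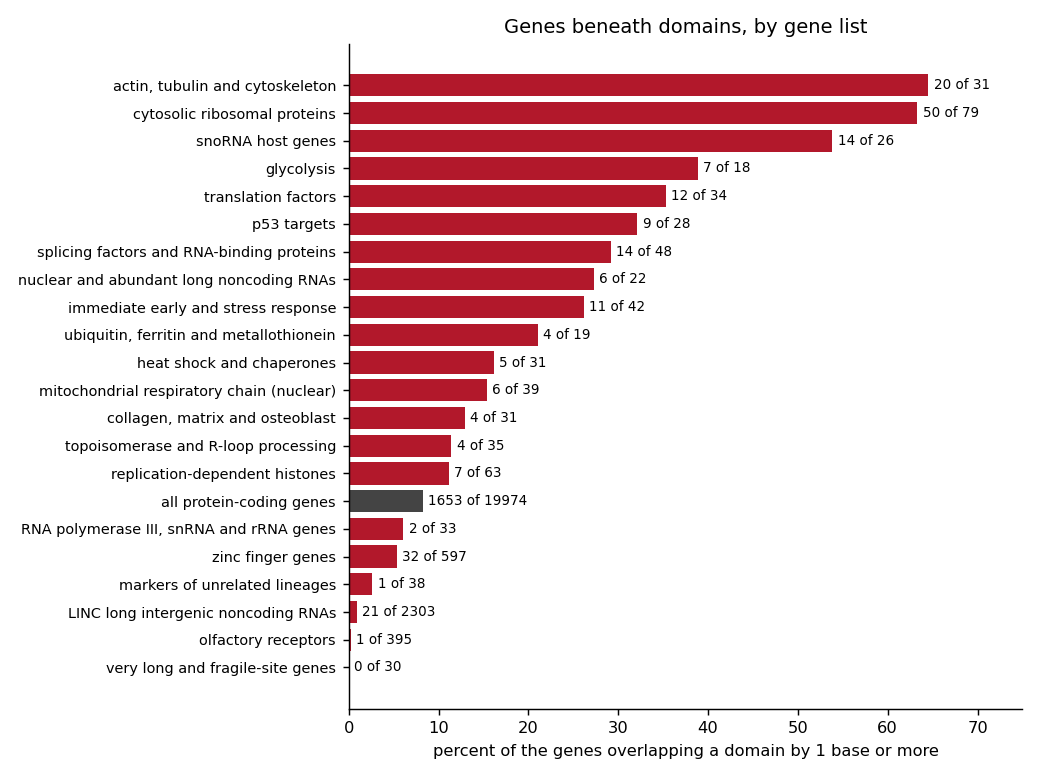
Percent of the genes of each list (bars, with counts) that overlapped a broad domain by 1 base or more; the dark bar is all protein-coding genes, at 8.28%. Cytoskeletal (64.5%) and ribosomal protein genes (63.3%) are at the top and very long genes, at 0 of 30, at the bottom.

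Domains had more of their peak bases at gene ends than narrower regions in every library, and genes beneath domains were fullest in the first kb after their end in all 5 libraries. Peaks of the same libraries chose the domains, so these positions are described and not tested. Of the peak bases within domains, 26.1% and 25.5% in SCAN1#1 and 27.3% in SCAN1#2, and 26.1% and 25.2% in WT, lay at gene ends, that is within 1 kb of the start or end of a protein-coding gene. In narrower regions the shares were 17.8% and 11.8% in SCAN1#1 and 13.2% in SCAN1#2, and 15.03% and 11.1% in WT. The difference of domains minus narrower regions was 12.3 ± 2.51 percentage points (SD, n = 5 libraries) and above 0 in all 5. All 5 libraries share one genome annotation and largely the same regions, so they repeat the measurement rather than the sites. Against narrower regions of 1 kb or more only, the difference was 3.84 points.

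Strand, known for 15813 of the protein-coding genes, separated starts from ends. Among 980 genes of 6 kb or more beneath domains, the last kb of the gene was covered over 65.7% and 59.9% on average in SCAN1#1 and 43.5% in SCAN1#2, and 64.8% and 50.5% in WT. The first kb was covered over 52.99% and 49.5% in SCAN1#1 and 45.9% in SCAN1#2, and 53.5% and 43.0% in WT. The last kb thus exceeded the first in 4 libraries, and in SCAN1#2 it was slightly below it. The first kb after the end was covered over 66.99% and 60.4% in SCAN1#1 and 46.6% in SCAN1#2, and 66.3% and 51.6% in WT. In 12081 other protein-coding genes the order was turned round, with 14.8% to 19.9% in the first kb and 2.85% to 4.64% in the last kb.

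The last minus the first kb was 20.9 ± 4.39 points higher in genes beneath domains than in other genes (SD, n = 5 libraries; above 0 in 5 of 5). Within the genes beneath domains alone, the last minus the first kb was 7.90 ± 6.09 points (SD, n = 5 libraries; above 0 in 4). For 103 such genes with no other gene within 3 kb, the difference from other genes was 9.63 points and the last minus first kb itself was -1.93 points. With a width minimum of 3 kb for domains these values were 7.43 and -5.00 points. The last kb thus exceeded the first on average over all genes beneath domains of 5 kb or more, but not over those without a near neighbour, nor at the 3 kb minimum.

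**Figure D3:**
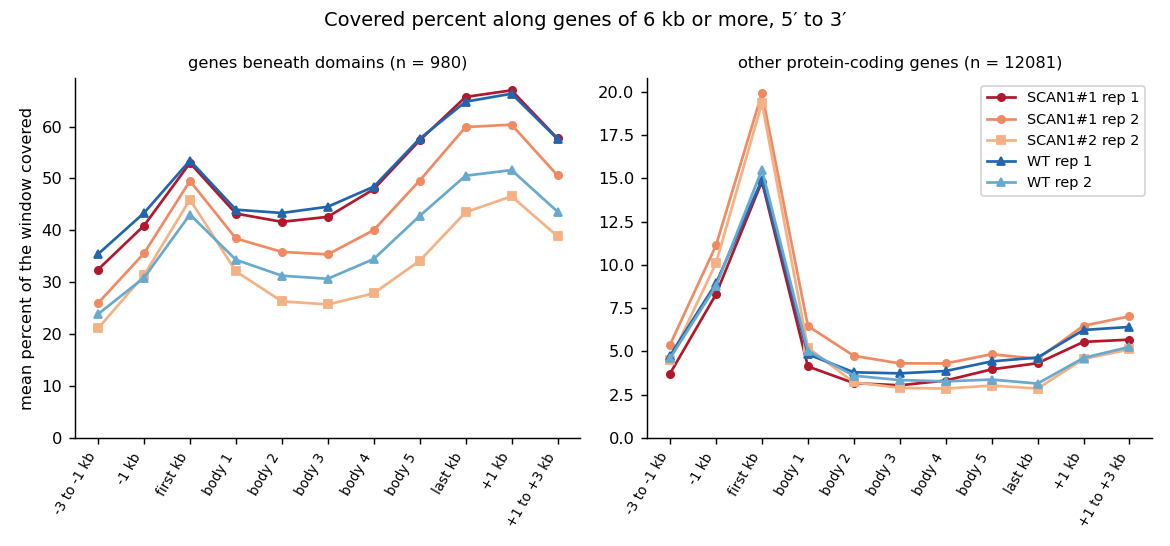
Mean percent of each window covered by peaks along genes of 6 kb or more, from 3 kb before the start to 3 kb after the end, with the gene body between the first and last kb in 5 equal parts, for genes beneath domains (left) and other protein-coding genes (right); lines are libraries and the vertical scales differ. Genes beneath domains are highest around their end, at up to 66.99%, and other genes in their first kb, at up to 19.9%.

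The reach of the domains over genes showed the same side. Among 1498 pairs of a domain and a protein-coding gene with known strand, 635 (42.4%) held only the end of the gene, 268 (17.9%) only its start, 310 (20.7%) both and 285 (19.03%) neither. Among 12674 pairs with regions of 1 kb to under 5 kb, 7.03% held only the end, 17.9% only the start and 74.6% neither. Of 394 domains with 2 protein-coding genes, both strands were known in 274. In 161 of these (58.8%) the genes converged, with their ends facing, in 39 (14.2%) they diverged and in 74 (27.0%) they ran in tandem. Among 4908 neighbouring gene pairs of the genome within 5 kb of each other, 34.2% converged, 29.8% diverged and 36.0% ran in tandem. These shares are descriptions, since a wide region can hold both genes only where they lie close.

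Between the experiments, the covered percent moved in opposite directions for domains with and without genes. Over the 1111 domains with a protein-coding gene, the median covered percent was 79.4% in SCAN1#1, 59.8% in SCAN1#2 and 69.5% in WT of experiment 2. In experiment 1 it was 86.5% in SCAN1#1 and 85.3% in WT. Over the 71 domains without a gene it was 86.9%, 79.3% and 93.2% in the same 3 libraries of experiment 2, and 57.4% and 77.0% in SCAN1#1 and WT of experiment 1. As classes, domains with genes were thus fuller in experiment 1 and domains without genes fuller in experiment 2, as the plot of covered percent by gene content shows. Without the clusters of domains without a gene described below, the medians of both kinds were on average higher in experiment 1. The 46 domains with other genes only followed those with protein-coding genes, with 81.3%, 62.3% and 74.1% in experiment 2 and 85.3% and 84.0% in experiment 1.

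**Figure D4:**
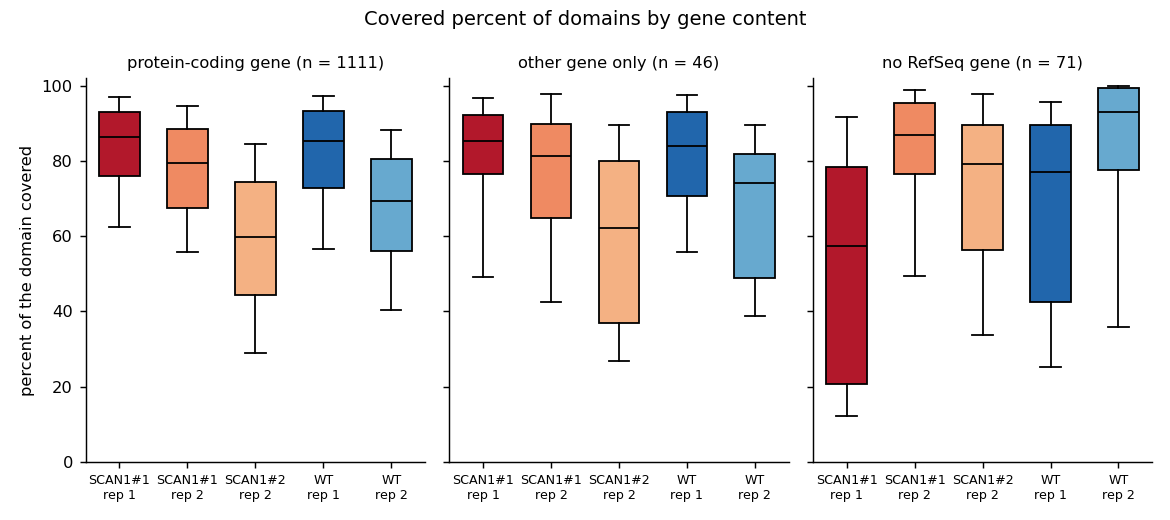
Percent of each domain covered by peaks of a library, for domains with a protein-coding gene, with other genes only and with no gene; boxes show the median and quartiles over domains, whiskers the 10th to 90th percentile. Domains without a gene have their lowest median, 57.4%, in SCAN1#1 replicate 1 and their highest, 93.2%, in WT replicate 2.

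Experiment 2 minus experiment 1 was -16.3 points for the median of domains with any gene and 19.3 points for domains without a gene, a gap of 35.5 points. Without SCAN1#1 replicate 1, the library with the emptiest domains without a gene, the gap was 25.1 points. The value for domains without a gene was then 9.46 points, and that for domains with one -15.7 points. Without the clusters described next it was 11.4 points, and both kinds were then below 0, at -4.91 points for domains without a gene and -16.3 points for those with one.

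Of the 71 domains without a gene, 37 formed 5 clusters, which lie near the centromeres of chromosomes 4, 10, 17, 20 and 21. They span chr4:49096046-49657979, chr10:38483640-47151902, chr17:21673469-26876457, chr20:31053315-31238578 and chr21:7915750-10738682. The median distance of these 37 to the nearest protein-coding gene was 187608 bases, against 5996.5 bases for the other 34. The cluster on chromosome 10 held the widest domain of all, chr10:41857002-41916261, which was covered over 79.8% and 98.9% in SCAN1#1 and 99.5% in SCAN1#2, against 96.5% and 99.99% in WT. The second domain of that chromosome, chr10:38483640-38529908, was covered over 21% and 90.7% in SCAN1#1 and 92.7% in SCAN1#2, against 64.9% and 99.1% in WT. In both, SCAN1#1 replicate 1 was lowest and WT replicate 1 next lowest.

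Over their summed width, the 37 clustered domains were covered over 39.1% and 91.0% in SCAN1#1 and 86.8% in SCAN1#2, against 67.6% and 97.3% in WT. Of them, 31 were higher in all libraries of experiment 2 than in both of experiment 1, against 6.35% of all domains and 21.1% of all tested regions. SCAN1#1 replicate 1 had the lowest value in 34 of the 37, against 72 of the 1157 domains with any gene. The emptiest cluster in that library was on chromosome 17, with 21.9% and 88.5% in SCAN1#1 and 76.2% in SCAN1#2, against 46.7% and 95.8% in WT. Over their summed width the other 34 domains without a gene did not share this order, with 71.2% and 73.7% in SCAN1#1 and 62.5% in SCAN1#2, against 76.1% and 70.5% in WT. Singly, 6 of these 34 were higher in all libraries of experiment 2 and 10 were higher in both of experiment 1. SCAN1#1 replicate 1 was lowest in 9 of them. Sequence near centromeres is repetitive, and no source used here says how reads with several matches were treated.

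**Figure D5:**
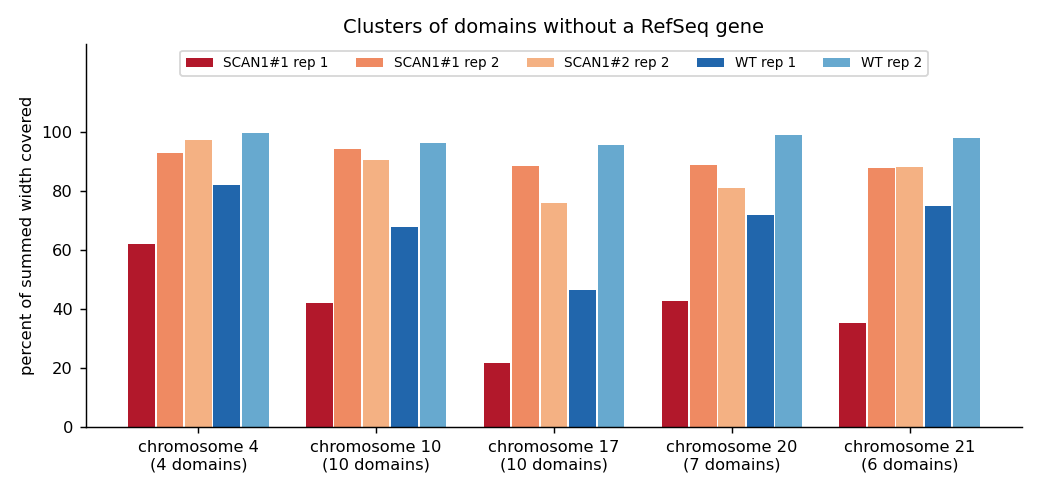
Percent of the summed width covered by peaks of each library (bars) in the 5 clusters of domains without a gene. In each cluster SCAN1#1 replicate 1 is lowest, at 21.9% to 62.3%, and WT replicate 2 is highest, at 95.8% to 99.9%.

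The contrast of experiments was tested with limma on the covered percent of all 20902 merged regions of 1 kb or more, from lists cut to the 63456 strongest peaks of each library, so that its differences can depart from those of the covered percents given per library. No region passed an adjusted p of 0.05 (0 domains in either direction, against 0% of all regions), with a smallest adjusted p of 0.126. At an unadjusted p under 0.05, 317 domains were lower in experiment 2 (25.8%), against 11.4% of all tested regions. SCAN1#2 is in experiment 2 only: with WT and SCAN1#1 alone and line as a term, 152 domains and 622 regions in all were lower, and with the lists as deposited 184 domains and 1088 regions. In the other direction 34 domains were higher (2.77%), against 7.41% of all regions. The same peaks chose the domains, so these shares are not independent of the rule. The median difference of experiment 2 minus experiment 1 was -16.8 points over domains with a protein-coding gene and 16.9 points over domains without a gene.

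On the log2 scale of covered bases plus 500, limma called 57 domains lower in experiment 2 at an adjusted p under 0.05, and 4.65% of all regions, a share near that of the domains (4.64%). It called 8 domains higher (0.651%), against 0.718% of all regions. Of the 71 domains without a gene, 6 were among these 8 and 4 were among the 57 called lower. Counted without a test, both libraries of experiment 1 were above all 3 of experiment 2 in 512 domains (41.7%), against 14.3% of all tested regions. All 3 libraries of experiment 2 were above both of experiment 1 in 78 domains (6.35%), against 21.1%. By count alone, experiment 1 was thus on top in a larger share of domains than of all tested regions, whereas the shares of log2 calls were near those of all regions. A domain can reach 5 kb through the libraries in which it is fullest, so the larger share by count can follow from the rule.

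The domains that differed most between experiments had opposite gene content. The 4 lowest in experiment 2 were led by ZNF598 (a ubiquitin ligase at collided ribosomes), which was covered over 38.7% in SCAN1#1, 0% in SCAN1#2 and 0% in WT of experiment 2, against 82.2% in SCAN1#1 and 86.5% in WT of experiment 1. The 3 libraries of experiment 2 lay below both of experiment 1, with a limma difference of -84.3 points (adjusted p = 0.126, and 0.0252 on the log2 scale). CTSW with FIBP, and LOC107985532 with the microRNA genes MIR130B and MIR301B, differed by -83.9 and -83.1 points. The 4 highest in experiment 2 had no gene and lay on chromosomes 10 and 17. The first of them, chr10:38792054-38797742, was covered over 93.2%, 71.5% and 90.9% in SCAN1#1, SCAN1#2 and WT of experiment 2, against 0% and 11.3% in SCAN1#1 and WT of experiment 1. Its difference was 81.6 points (limma adjusted p = 0.126, and 0.0252 on the log2 scale).

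No region passed the test of SCAN1 against WT over all 5 libraries. The share of peak bases in domains was 17.2% ± 5.62 in SCAN1 (SD, n = 3) and 17.4% ± 3.57 in WT (SD, n = 2). The difference of -0.245 points lies within the spread of the libraries. A permutation of the labels has only 10 splits of 3 against 2 libraries and cannot pass the threshold, so no conclusion is drawn from it. Within experiment 1 SCAN1#1 was 3.72 points above WT. Within experiment 2 the differences from WT were -1.11 points for SCAN1#1 and -0.819 points for SCAN1#2. Among the tested regions limma called 0 higher and 0 lower at an adjusted p of 0.05 (0% of all regions and 0 domains in each direction), with a smallest adjusted p of 0.937. At an unadjusted p under 0.05, 10 domains were higher in SCAN1 (0.814%), against 1.82% of all regions, and 1 was lower (0.0814%), against 1.12%. Over all domains 505 had differences above 0 and 723 below 0, with a median of -2.72 points, against 0.575 points over all tested regions. This lean is not stable: with the experiment as a block 606 were above 0 and 622 below (median -0.418 points). Without WT replicate 1, 786 were above and 442 below (median 5.61 points), and without SCAN1#2 replicate 2, 760 and 468 (median 3.84 points). Without WT replicate 2, 367 were above and 861 below (median -9.48 points). Leaving out a WT replicate leaves WT as a single library of 1 experiment, so genotype and experiment are then partly mixed.

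The SCAN1 lines lay on both sides of WT in domains with genes. For domains with a protein-coding gene, the summed covered percent was 1.44 and 8.91 points above WT of the same experiment in SCAN1#1, and -8.50 points from it in SCAN1#2. For domains without a gene all 3 SCAN1 libraries were below WT, with differences of -20.99 and -3.26 points in SCAN1#1 and -9.71 points in SCAN1#2. This did not hold for the 34 of these domains outside the clusters. There SCAN1#1 was at 71.2% against 76.1% in WT of experiment 1. In experiment 2 SCAN1#1 was above WT, at 73.7% against 70.5%, and SCAN1#2 was below it, at 62.5%. Over the gene lists, 0 domains passed the test in either direction.

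Some single domains were higher in all 3 SCAN1 libraries than in WT of the same experiment, although none passed the adjusted threshold. These were picked for that order, so it is a description. TGM2 encodes transglutaminase 2, an enzyme that cross-links proteins. Its domain chr20:38140595-38149674 was covered over 95.8% and 93.4% in SCAN1#1 and 55.2% in SCAN1#2, against 10.6% and 13.6% in WT. The limma difference was 74.4 points (SE 24.5, adjusted p = 0.937). A second TGM2 domain, chr20:38133779-38139019, was covered over 86.3% and 89.1% in SCAN1#1 and 21.1% in SCAN1#2, against 0% in both WT libraries. The groups did not overlap in either of them on the lists as deposited. How many of all domains separate SCAN1 from WT in this way was not counted. On the lists of equal length, the second domain was at 0% in SCAN1#2 and in both WT libraries.

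TIGAR, a p53 target that lowers glycolytic flux, was covered over 99.5% and 64.7% in SCAN1#1 and 65.8% in SCAN1#2, against 36.2% and 20.7% in WT (limma difference 58.2 points, SE 23.6, adjusted p = 0.937). LAMB3 encodes a chain of laminin-332, a protein of basement membranes. Its domain was covered over 75.1% and 77.7% in SCAN1#1 and 57.5% in SCAN1#2, against 4.18% and 28.3% in WT. GGA1, an adaptor of Golgi transport, was covered over 82.8% and 87.1% in SCAN1#1 and 46.0% in SCAN1#2, against 54.8% and 41.1% in WT, so its groups overlapped. LOC124902561 on chromosome 10 and a domain without a gene at chr1:244740276-244745495 completed the 6. That position was covered over 65.9% and 76.2% in SCAN1#1 and 79.6% in SCAN1#2, against 8.58% and 10.7% in WT.

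Of the 6 domains lower in SCAN1, 3 held genes. XRCC3, a gene of homologous recombination, lay in a domain with KLC1 that was covered over 42.9% and 38.1% in SCAN1#1 and 8.37% in SCAN1#2, against 91.9% and 66.6% in WT. KIFC1, a motor protein of the spindle, was covered over 57.8% and 36.5% in SCAN1#1 and 9.01% in SCAN1#2, against 100% and 66.3% in WT. In both, all SCAN1 values lay below both WT values on the lists as deposited, and the share of all domains with this order was not counted. On the lists of equal length the groups overlapped at XRCC3, with 42.9% in SCAN1#1 replicate 1 against 42.7% in WT replicate 2. ANAPC11, the RING subunit of the anaphase-promoting complex, shares its domain with ALYREF, an mRNA export factor. It was covered over 36.1% and 14.2% in SCAN1#1 and 24.6% in SCAN1#2, against 93.5% and 38.0% in WT. A domain without a gene, chr1:41485476-41498373, had the smallest error of the 6, with 55.5% and 49.3% in SCAN1#1 and 54.3% in SCAN1#2, against 95.2% and 87.9% in WT (limma difference -41.5 points, SE 11.6, adjusted p = 0.937). The other 2, on chromosomes 21 and 9, also had no gene.

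The 5 domains with a peak in fewer than 4 libraries were uneven across lines or experiments. The second TGM2 domain and chr1:218594725-218599881, which has no gene, were filled mainly in SCAN1#1. That position was covered over 97.7% and 86.9% in SCAN1#1 and 0% in SCAN1#2, against 0% in both WT libraries. ZNF598, RNF123 (a ubiquitin ligase) and chr16:3005108-3010544, which has no gene, had 0 covered bases in SCAN1#2 and in WT replicate 2. RNF123 was covered over 80.2% and 40.4% in SCAN1#1 and 63.9% in WT replicate 1.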

How the data were processed

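The authors deposited 1 peak list in the narrowPeak layout for each of 5 DRIP libraries, and the 5 input samples were not analysed here. Peak positions, the deposited score, the fold enrichment (a ratio over the caller's background) and the -log10 p and -log10 q are the authors' values, as that layout defines them. Per the submitters' processing notes the build was hg38, and MACS3 3.0.0a6, deepTools 3.5.1, SAMtools 1.9, BWA 0.7.17-r1188 and FastQC 0.11.5 were used. No source used here gives their roles, options, controls or the read depth. Each library has its own list, and the smallest deposited -log10 q was 2.00.

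Peaks that overlapped by at least 1 base were merged over the 5 lists, and regions of 5000 bases or more were kept. The covered percent is the share of a region's width under peaks of a library. Genes came from RefSeq on GRCh38.p14 (59098 genes on these chromosomes, 19974 protein-coding), and strand from its promoter table, which had 79.2% of the protein-coding genes. Coordinates are 1-based.

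Merged regions of 1000 bases or more were tested on their covered percent in R 4.3.3 with limma 3.58.1 (eBayes with trend after lmFit). For this test each list was cut to its 63456 peaks with the largest -log10 p. P-values were adjusted by Benjamini-Hochberg over 20902 regions, with a threshold of 0.05. Covered percents given per library use the lists as deposited. The steps were tested on simulated data. The simulated libraries had one spread for all regions and no difference between experiments, so they do not show what the fit can detect here. Python 3.11.15, numpy 2.4.6, pandas 2.3.3 and matplotlib 3.10.9 were used.

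The members and gene lists were chosen with earlier results of these data known. Named domains are the 12 widest, the 12 fullest in their emptiest library, the widest of each gene list and 3 on each side of 5000 bases. For experiment 2 against 1, the 4 largest differences per direction were added. For SCAN1 against WT, 6 per direction were named among domains whose 3 differences from WT of the same experiment had one sign. These were ranked by the smallest of the 3 differences, on lists of equal length. The 5 domains with the fewest libraries were chosen after their values were seen, as were the profile along genes, the promoters printed and the clusters of 3 or more domains without a gene within 5 Mb of each other. A few genes and domains chosen this way were left out of the text.

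The labels number replicates by experiment, so the numbers pair the samples. Deviations from the group means of same-numbered libraries correlated across regions by 0.376 (WT and SCAN1#1, replicate 1), 0.240 (WT and SCAN1#1, replicate 2) and 0.206 (WT and SCAN1#2, replicate 2). Across domains alone these values were 0.601, 0.484 and 0.27. They are not independent, since the deviations within a group sum to 0. The limma values given for single domains come from the fit without the experiment as a block.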

Additional observations from a re-analysis of the deposited data

Results flagged for a closer look

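In 4 measures the SCAN1 libraries moved in opposite directions from WT of the same experiment, by experiment or by line. None of these differences between experiments or lines was tested, since 1 side of each is a single library. The percent of peak bases in domains was 3.72 points above WT in SCAN1#1 in experiment 1, and -1.11 points (SCAN1#1) and -0.819 points (SCAN1#2) from WT in experiment 2. This split by experiment did not hold with lists of equal length, where SCAN1#1 was above WT in both experiments and SCAN1#2 below it.

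The median covered percent of domains with a protein-coding gene was above WT by 1.20 and 9.92 points in SCAN1#1 replicates 1 and 2, and -9.67 points from WT in SCAN1#2. For domains with other genes only the same values were 1.25, 7.27 and -11.8 points. The last minus the first kb of genes beneath domains, in points of covered percent, was above WT by 1.40 and 2.89 in SCAN1#1 replicates 1 and 2, and -9.93 from WT in SCAN1#2. WT replicate 2 is the control of both libraries of experiment 2, so these values share it.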

How the results depend on the processing

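The number of domains was 2048 with gaps of up to 500 bases joined, 2850 at a width minimum of 3000 bases and 391 at 10000 bases, and 1058 to 1198 without each replicate in turn. The mean percent of peak bases in domains was 26.8%, 24.8% and 9.31% in the first 3 settings, and 13.7% to 17.7% without each replicate. Equal lists, stricter peaks and a peak in at least 2 libraries left both within the limits set (1.5 times, 1 SD). SCAN1 minus WT for that percent was 0.597 points with the replicate block, and -2.86 to 1.74 points without each replicate. The replicate block changed no other call, with 0 regions called for SCAN1 against WT. Without each replicate, 0 to 586 regions were called for SCAN1 against WT, the 586 without WT replicate 2. For experiment 2 against experiment 1, 1121 regions were called on the log2 scale, and 0 to 2622 without each replicate: 2622 without WT replicate 1 (16 domains higher, 18 lower) and 2222 without SCAN1#1 replicate 1 (5 and 16), with a lone library then assumed to vary like the others. Of the 12 domains named for SCAN1 against WT, 0 passed the threshold in 96 refits; their direction follows from how they were chosen.

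Domains minus narrower regions at gene ends stayed positive in every setting run, at 6.83 and 21.8 points for windows of 500 and 2000 bases and 11.8 to 13.3 points without each replicate. Chosen after seeing the data, the last minus first kb of genes beneath domains was -1.93 points for genes with no other gene within 3 kb and -5.00 points at a width of 3000 bases. It was 6.69 to 10.5 points without each replicate, and its difference from other genes 19.7 to 22.6 points. Also chosen after seeing the data, the gap between domains without and with a gene across experiments was 11.4 points without the clusters, and 25.1 to 46.0 points without each replicate. Read depth was not given, so a region without a peak may lie under the limit of detection of its library.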
